A study of Homo sapiens with 12 samples.

Results

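The 9 genes described here are taken from the insulin, PI3K and FOXO pathway, together with *KLHL24*, which is known as an adaptor of a ubiquitin ligase and not as a carrier of the insulin signal. They are the insulin receptor *INSR*, its substrates *IRS1* and *IRS2*, the transcription factors *FOXO1*, *FOXO3* and *FOXO4*, the PI3K inhibitor *PIK3IP1*, the PI3K regulatory subunit *PIK3R1*, and *KLHL24*. They were chosen by gene symbol, with earlier results of these data known. The count files hold 43236 genes, and all 9 were among the 15979 with enough reads to be tested. The cells were MNNG/HOS, named HOS-MNNG in the sample labels, a chemically transformed human osteosarcoma line, so every library comes from 1 cell line in culture. They received 300 nM NXP800, a small oral molecule under clinical study that was first developed against the heat shock factor pathway, or the solvent DMSO. RNA was taken at 6 h and at 24 h. The 4 groups (DMSO 6 h, NXP800 6 h, DMSO 24 h and NXP800 24 h) had 3 libraries each. The comparison asked how the drug changed mRNA levels at each time, each against the DMSO libraries of the same time. Nothing in the labels says that replicates came from separate cultures, so p-values measure the spread between these libraries, which may be technical.

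In the textbook pathway, insulin or IGF binding makes the receptor phosphorylate the IRS proteins, which recruit PI3K to the membrane. PI3K makes the lipid that activates AKT, and AKT phosphorylates FOXO factors, which then leave the nucleus. When the signal is low, FOXO factors stay in the nucleus and switch on genes of growth arrest, stress defence and protein breakdown, with *INSR* and *IRS2* among their known targets in several tissues.

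Each library held between 30810614 and 31947656 counts on genes. Of 10 mesenchymal and osteoblast lineage markers, 7 had a mean of at least 1 CPM (gene counts scaled to a common library size, with TMM factors). *VIM* reached 3338 to 5891 CPM, *SPARC* 91.7 to 615 CPM and *RUNX2* 20.7 to 42.5 CPM. In contrast, *ALPL* and *SP7* stayed at or below 0.222 CPM. *COL1A2* stayed at or below 0.378 CPM, although *COL1A1* had 143 to 566 CPM. The blood genes *PTPRC* and *CD3E* and the endothelial genes *CDH5* and *TEK* were at or below 0.240 CPM, while *CD14* reached 3.36 CPM, *SPI1* 0.658 CPM and *PECAM1* and *VWF* 0.914 CPM in their highest libraries. The summed epithelial markers moved with the drug, from 7.32 to 8.64 CPM in DMSO to 9.30 to 11.2 CPM in NXP800 at 6 h and from 7.86 to 8.78 CPM to 14.8 to 15.5 CPM at 24 h, carried by *EPCAM* (5.59 to 10.2 CPM over all libraries), *CLDN7* (1.46 to 3.67 CPM) and *ESRP1* (0.152 to 1.94 CPM), while *CDH1* and *KRT5* did not exceed 0.0673 CPM. The summed mesenchymal list was lower in NXP800 at both times, at 4796 to 4975 CPM against 5494 to 5842 CPM at 6 h and 4321 to 5102 CPM against 6485 to 7309 CPM at 24 h. The summed blood list was lower too, at 0.399 to 0.643 CPM against 1.81 to 2.96 CPM at 6 h and 0.972 to 1.49 CPM against 2.34 to 3.43 CPM at 24 h. The summed endothelial list went from 1.25 to 1.86 CPM to 0.522 to 1.01 CPM at 6 h and from 1.00 to 1.24 CPM to 0.297 to 0.542 CPM at 24 h. The part of these shifts in the results below was not tested. At 6 h, 6.66 to 8.14% of reads fell on no annotated gene, against 2.73 to 3.67% at 24 h, and time and library set cannot be told apart, so levels are not tested across times.

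NXP800 raised *IRS2*, *FOXO3* and *KLHL24* at both times, by 1.90-fold to 3.16-fold, and every NXP800 library lay above every DMSO library of its time for these 3 genes, as for 29.3% of all tested genes at 6 h and 29.0% at 24 h. At 6 h, 8 of the 9 genes had no overlap between DMSO and NXP800, 6 above and 2 below, where 62.0% of all tested genes had none and 32.7% were below. At 24 h it was 3 of the 9, all above, where 59.1% had none and 30.1% were below. At 6 h *IRS1* and *FOXO1* also rose, by 1.27-fold and 1.25-fold, while *FOXO4* and *PIK3R1* fell 1.78-fold and 1.41-fold. None of these 4 passed the test at 24 h. In counts, 7 of the 9 genes (77.8%) passed an adjusted p below 0.05 at 6 h, 5 increased and 2 decreased, where 52.8% of all tested genes passed, 25.0% increased and 27.8% decreased. At 24 h, 3 of the 9 (33.3%) passed, where 56.0% of all tested genes did. All 3 increased and 0 decreased. DESeq2 gave the same counts. With the replicate block described with *INSR*, 4 increased and 0 decreased, where 65.2% of all tested genes passed. At an unadjusted p below 0.05 in edgeR, 4 increased and 0 decreased. The share of all tested genes at that unadjusted threshold was not computed. The share of the 9 genes called lies above the background at 6 h and below it at 24 h. The 9 genes are few and were chosen with earlier results of these data known, so this is a description only. The median log2 fold change of the 9 genes was 0.34 at 6 h and 0.12 at 24 h, beside -0.046 and -0.0033 over all tested genes. Unless another test is named, adjusted p-values come from the quasi-likelihood test of edgeR, with the adjustment of Benjamini and Hochberg made over all tested genes.

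**Figure D1:**
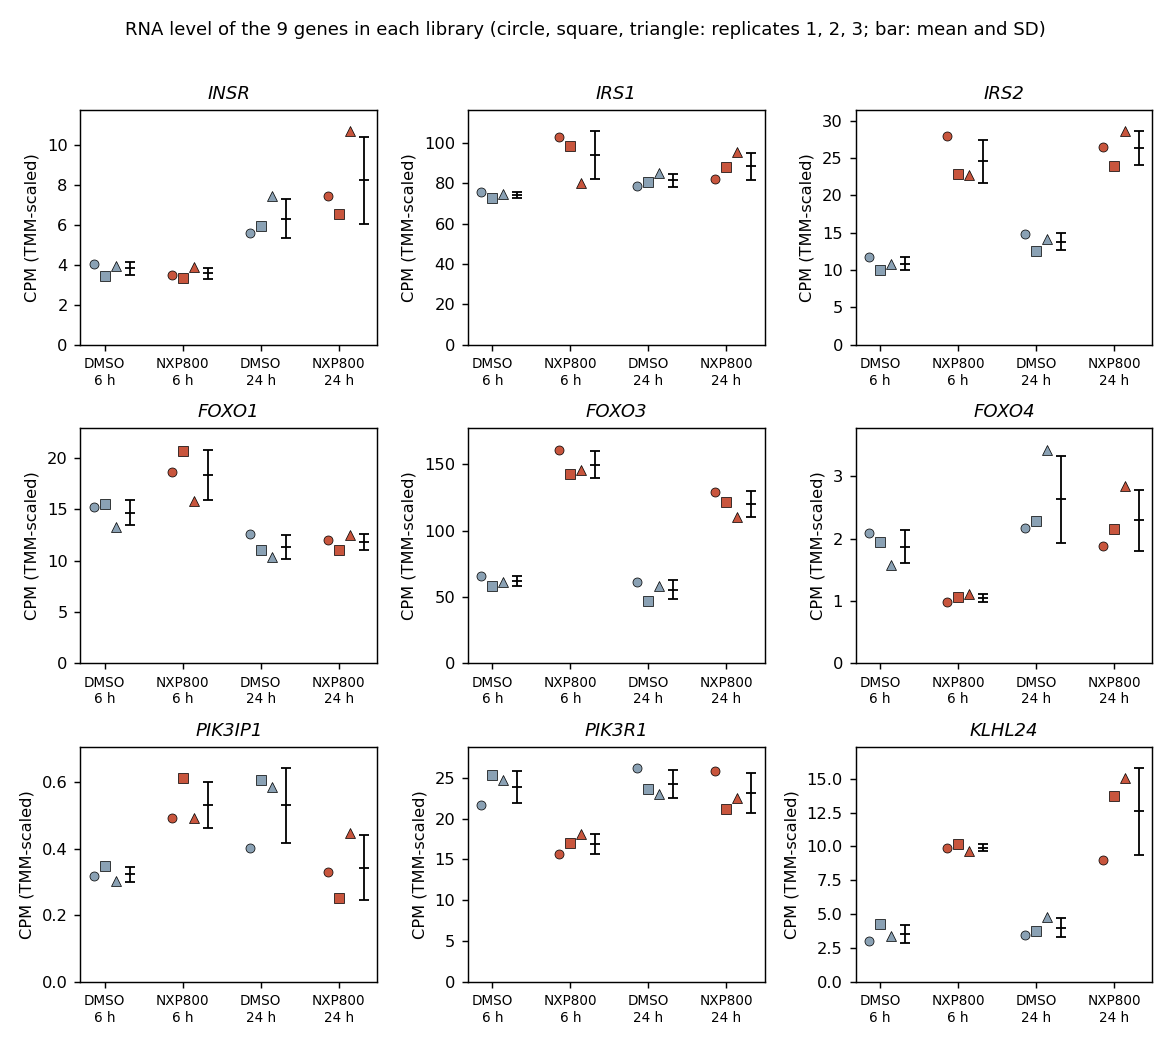
CPM of each gene (linear axes from 0, a scale of its own for each gene) in every library, in the order DMSO 6 h, NXP800 6 h, DMSO 24 h and NXP800 24 h. Points are libraries, and the bars give the mean and SD of 3. *FOXO3*, *IRS2* and *KLHL24* are higher with NXP800 at both times without overlap, and *PIK3IP1* stays below 0.62 CPM throughout.

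*INSR*, the receptor itself, lies on chromosome 19 (7112265 to 7294414, minus strand, GRCh38.p14). It had 4.06, 3.44 and 3.95 CPM in DMSO and 3.50, 3.33 and 3.87 CPM in NXP800 at 6 h. At 24 h it had 5.59, 5.92 and 7.42 CPM in DMSO and 7.43, 6.55 and 10.7 CPM in NXP800. The groups overlapped at both times, and the highest library was NXP800 24 h replicate 3. The log2 fold change was -0.10 (SE 0.18, adjusted p = 0.682) at 6 h and 0.38 (SE 0.17, 95% interval 0.032 to 0.73, adjusted p = 0.0599) at 24 h. The 24 h call depended on the fit, and the log2 fold change ran from 0.15 to 0.55 over the alternatives. Same-numbered DMSO and NXP800 libraries deviated together. Once the replicate number was fitted as a block, the 24 h value hardly changed, at 0.37 (SE 0.10). Its adjusted p was 0.00389, in a fit that called 65.2% of all tested genes. Without NXP800 24 h replicate 3 the log2 fold change was 0.15. Leaving out DMSO 24 h replicate 3 (adjusted p = 0.0278) or NXP800 24 h replicate 2 (adjusted p = 0.0115) brought it past the threshold.

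*IRS1* and *IRS2* are docking proteins that the receptor phosphorylates. *IRS1* (chromosome 2, 226731312 to 226799820, minus strand) had 75.7, 72.7 and 74.6 CPM in DMSO and 103, 98.6 and 80.4 CPM in NXP800 at 6 h. All NXP800 libraries were above the DMSO ones, replicate 3 least, and the log2 fold change was 0.34 (SE 0.082, adjusted p = 0.00252). At 24 h the groups overlapped, with 79.0, 80.6 and 85.3 CPM in DMSO and 82.2, 88.0 and 95.6 CPM in NXP800, and the log2 fold change was 0.12 (SE 0.082, 95% interval -0.057 to 0.29, adjusted p = 0.236). With scaling by library size only it was 0.21 (adjusted p = 0.0444).

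*IRS2* (chromosome 13, 109752695 to 109786583, minus strand) rose at both times. It had 11.8, 9.99 and 10.8 CPM in DMSO and 27.9, 22.9 and 22.8 CPM in NXP800 at 6 h, then 14.8, 12.5 and 14.1 CPM against 26.4, 24.0 and 28.6 CPM at 24 h. No DMSO library of either time reached the lowest NXP800 library. The log2 fold change was 1.18 (SE 0.11, adjusted p = 1.69e-07) at 6 h and 0.93 (SE 0.10, adjusted p = 1.47e-06) at 24 h. An unnamed antisense gene overlaps 1.41% of the exon length of *IRS2*, and the strand setting of the counting is not given in the sources used here. Per kilobase of exon, *IRS2* made up 15.2% ± 0.816 (SD, n = 3) of the summed level of *IRS1* and *IRS2* in DMSO and 24.3% ± 1.90 in NXP800 at 6 h, and 17.2% ± 1.35 and 26.7% ± 1.62 at 24 h. These shares did not overlap at either time (exact permutation test, two-sided, p = 0.1, the smallest that 3 against 3 libraries allow).

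*FOXO3* was the most abundant of the 3 FOXO genes. It lies on chromosome 6 (108559825 to 108684774, plus strand) and encodes a factor known for stress resistance and cell cycle arrest. At 6 h it had 65.7, 58.2 and 61.4 CPM in DMSO and 161, 143 and 145 CPM in NXP800, and at 24 h 61.0, 47.1 and 58.1 CPM against 129, 122 and 110 CPM. The lowest NXP800 library lay well above the highest DMSO library at each time, and the log2 fold changes were 1.28 (SE 0.090, adjusted p = 1.19e-08) and 1.12 (SE 0.091, adjusted p = 3.69e-08). *FOXO3B*, a near-identical copy that can share reads with it, took 10.7 to 17.0% of the counts of the pair. With the counts of *FOXO3* and *FOXO3B* summed, an alternative chosen after seeing the data, the log2 fold changes were 1.30 (adjusted p = 1.19e-08) and 1.09 (adjusted p = 5.92e-08). Reads without a unique alignment were counted under no gene, so the sum does not recover them. Most of the sum is *FOXO3* itself.

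*FOXO1* (chromosome 13, 40555667 to 40666641, minus strand) drives glucose production genes in liver and is widely expressed. It had 15.3, 15.5 and 13.3 CPM in DMSO and 18.6, 20.7 and 15.9 CPM in NXP800 at 6 h. The groups were apart by a small gap, and the log2 fold change was 0.33 (SE 0.11, adjusted p = 0.0200). That call was lost without DMSO 6 h replicate 3 (0.26, adjusted p = 0.0912), without NXP800 6 h replicate 1 (0.32, adjusted p = 0.0534) and without NXP800 6 h replicate 2 (0.23, adjusted p = 0.118). At 24 h the groups overlapped, at 12.6, 11.0 and 10.4 CPM in DMSO and 12.02, 11.0 and 12.5 CPM in NXP800, with a log2 fold change of 0.07 (SE 0.11, 95% interval -0.18 to 0.31, adjusted p = 0.648). Another gene on the same strand, which GENCODE lists without a name, covers 22.7% of the exon length of *FOXO1*.

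*FOXO4*, on chromosome X (71095851 to 71103532, plus strand), moved the other way. It had 2.09, 1.95 and 1.58 CPM in DMSO and 0.983, 1.07 and 1.11 CPM in NXP800 at 6 h, that is 52 to 66 counts against 32 to 36. No values overlapped, and the log2 fold change was -0.83 (SE 0.23, adjusted p = 0.00673). At 24 h, 2.17, 2.29 and 3.43 CPM in DMSO overlapped with 1.88, 2.16 and 2.84 CPM in NXP800, and the log2 fold change was -0.19 (SE 0.21, adjusted p = 0.444). Without DMSO 24 h replicate 3, the highest of these libraries, it was 0.041 (adjusted p = 0.889).

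The plot of shares shows how *FOXO1*, *FOXO3* and *FOXO4* divide their summed level in each library. *FOXO6*, with a mean of at most 0.551 CPM in any group, and *FOXO3B* are not part of these shares. Per kilobase of exon, *FOXO3* made up 73.1% ± 2.16 of the summed level of *FOXO1*, *FOXO3* and *FOXO4* in DMSO and 85.3% ± 1.82 in NXP800 at 6 h, and 73.4% ± 1.75 and 85.7% ± 2.03 at 24 h. The share of *FOXO1* was 22.4% ± 1.75 against 13.5% ± 1.81 at 6 h and 19.5% ± 2.28 against 10.9% ± 1.16 at 24 h. The share of *FOXO4* was 4.48% ± 0.495 against 1.22% ± 0.139 and 7.09% ± 1.73 against 3.35% ± 0.919. None of these shares overlapped between DMSO and NXP800 at either time (exact permutation test, two-sided, p = 0.1 each, the smallest that 3 against 3 libraries allow). A share can fall while its gene does not, as for *FOXO1*, whose level passed the test upward at 6 h.

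**Figure D2:**
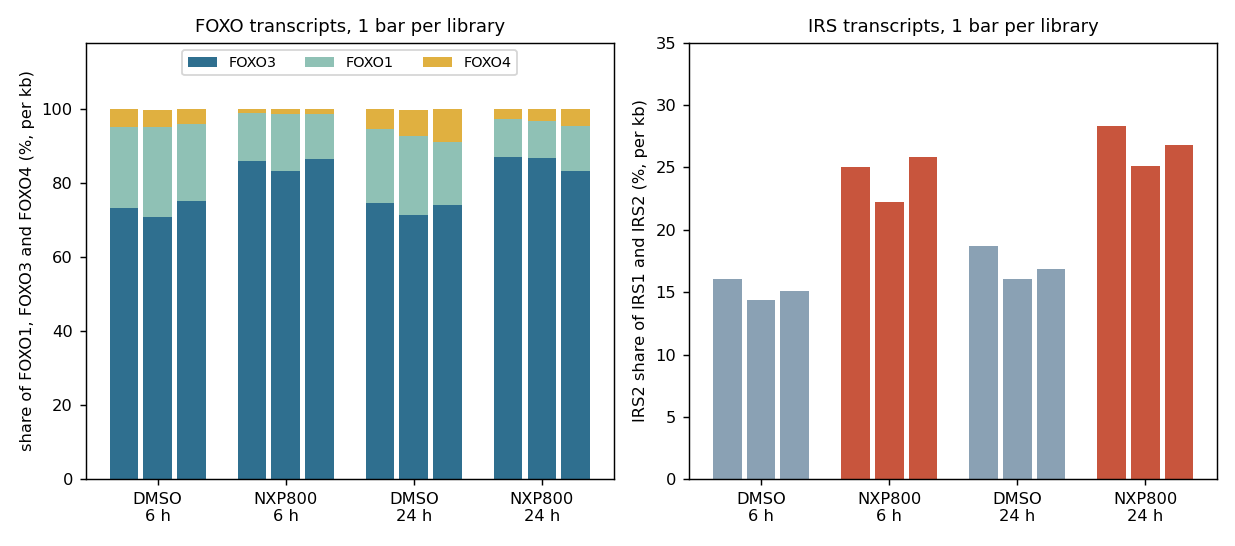
Shares, in percent of the summed level per kilobase of exon, of *FOXO1*, *FOXO3* and *FOXO4*, and of *IRS2* within *IRS1* and *IRS2*, in the 4 groups, with 1 bar per library. *FOXO3* goes from 73.1% to 85.3% at 6 h and from 73.4% to 85.7% at 24 h, and *IRS2* from 15.2% to 24.3% and from 17.2% to 26.7%.

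*PIK3IP1* (chromosome 22, 31281593 to 31292534, minus strand) encodes a membrane protein that binds and inhibits the catalytic subunit of PI3K. It was barely expressed, with 8 to 20 counts in a library. At 6 h the counts were 10, 11 and 10 in DMSO and 16, 20 and 16 in NXP800, and at 24 h 12, 18 and 17 in DMSO and 10, 8 and 14 in NXP800. The NXP800 libraries were higher at 6 h without overlap, and the groups overlapped at 24 h. Neither time passed the test, with log2 fold changes of 0.71 (SE 0.31, adjusted p = 0.0610) and -0.62 (SE 0.31, adjusted p = 0.0981). At counts this low a difference of this size was not resolved at either time.

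*PIK3R1* (chromosome 5, 68215756 to 68301821, plus strand) encodes a regulatory subunit that both stabilises and restrains the catalytic subunit of PI3K. It had 21.6, 25.3 and 24.7 CPM in DMSO and 15.7, 17.0 and 18.1 CPM in NXP800 at 6 h. The groups did not overlap, and the log2 fold change was -0.50 (SE 0.096, adjusted p = 0.000373). At 24 h, 26.2, 23.6 and 23.0 CPM in DMSO overlapped with 25.9, 21.1 and 22.5 CPM in NXP800, and the log2 fold change was -0.07 (SE 0.095, 95% interval -0.27 to 0.13, adjusted p = 0.561). That value was 0.019 with scaling by library size only and 0.020 without NXP800 24 h replicate 2.

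*KLHL24* (chromosome 3, 183635623 to 183684519, plus strand) encodes a Kelch-like adaptor that brings substrates to the CUL3 ubiquitin ligase and is known in skin for the turnover of a basal keratin. It had the largest fold change of the 9 genes at both times. It had 2.98, 4.26 and 3.40 CPM in DMSO and 9.92, 10.2 and 9.64 CPM in NXP800 at 6 h, then 3.45, 3.73 and 4.81 CPM against 8.98, 13.8 and 15.1 CPM at 24 h. The NXP800 libraries were close together at 6 h and spread at 24 h, where replicate 1 was lowest, and none overlapped with DMSO. The log2 fold change was 1.48 (SE 0.18, adjusted p = 5.38e-06) at 6 h and 1.66 (SE 0.18, adjusted p = 1.15e-06) at 24 h.

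**Figure D3:**
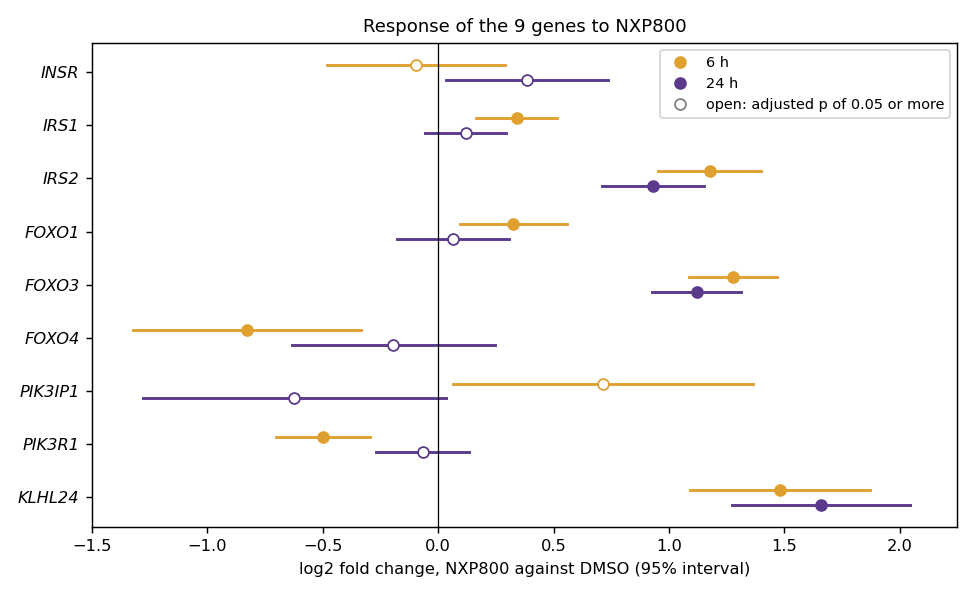
Log2 fold change of NXP800 against DMSO for each gene at 6 h and 24 h, with 95% intervals. Filled points passed an adjusted p below 0.05. *IRS2*, *FOXO3* and *KLHL24* lie between 0.93 and 1.66 at both times, and *FOXO4* and *PIK3R1* are below 0 and filled at 6 h only.

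*IRS2* and *KLHL24* are shown with the sequence just upstream of their starts because they are the called genes whose windows hold the same pair of short motifs. The sequences are the 250 bases before the RefSeq start in GRCh38.p14, written 5′ to 3′ on the strand of the gene. Capitals mark TGTTTTG, the core of the insulin response sequence that FOXO factors can bind, and TCACATG, an E-box with its flank.
*IRS2*, chr13:109786584-109786833, minus strand: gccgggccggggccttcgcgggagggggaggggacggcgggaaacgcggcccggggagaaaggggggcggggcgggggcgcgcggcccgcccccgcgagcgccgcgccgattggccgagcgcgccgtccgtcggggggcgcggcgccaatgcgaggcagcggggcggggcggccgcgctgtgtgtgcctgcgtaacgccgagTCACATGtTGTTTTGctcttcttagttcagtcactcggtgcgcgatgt
*KLHL24*, chr3:183635373-183635622, plus strand: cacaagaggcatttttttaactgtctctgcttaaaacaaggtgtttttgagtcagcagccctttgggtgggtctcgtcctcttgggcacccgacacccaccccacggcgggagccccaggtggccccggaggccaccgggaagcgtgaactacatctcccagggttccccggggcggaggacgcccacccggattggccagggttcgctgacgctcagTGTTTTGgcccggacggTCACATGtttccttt
In *IRS2*, TCACATG lies at -48 to -42 and TGTTTTG at -40 to -34 from the start, and in *KLHL24* TGTTTTG lies at -32 to -26 and TCACATG at -15 to -9. Both strands were searched in 35116 RefSeq windows of the same length, of which 4.30% held TGTTTTG, 2.90% held TCACATG and 0.148% held both. These motifs were picked after reading the promoters, so the match is a description only. The 9 genes have 16 windows in all, some overlapping, and the 4 of *FOXO3* held neither motif. The canonical FOXO site core GTAAACA (2.98% of all windows) and the heat shock element (GAA, TTC and GAA with any 2 bases between them, 0.441%) occurred in none of the 16. TGATGNAA, a core that ATF4 with C/EBP factors can bind (3.14%), occurred in a single window, of *PIK3R1*, at -55 to -48. No match says only that these letters are not in these windows.

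Whether a gene responded differently at the later time was tested as the 24 h minus the 6 h log2 fold change. That test was passed by 2 of the 9 genes (22.2%), where 25.8% of all tested genes passed. *PIK3R1* had a difference of 0.43 (SE 0.13, adjusted p = 0.0271) and *PIK3IP1* one of -1.34 (SE 0.44, adjusted p = 0.0328). For *PIK3R1*, the call was kept without DMSO 6 h replicate 1, NXP800 6 h replicate 3, DMSO 24 h replicate 1 or NXP800 24 h replicate 2 or 3, and leaving out any of the other 7 libraries ended it, with adjusted p-values up to 0.0792. For *PIK3IP1* it was kept without NXP800 6 h replicate 3, DMSO 24 h replicate 1 or NXP800 24 h replicate 3, and any of the other 9 ended it, with adjusted p-values up to 0.0849. DESeq2 gave *PIK3IP1* an adjusted p of 0.130. With the replicate block 4 of the 9 passed, where 39.3% of all tested genes did, adding *INSR* at 0.47 (adjusted p = 0.0262) and *FOXO4* at 0.63 (adjusted p = 0.0430). For *IRS2*, *FOXO3* and *KLHL24* the differences were -0.25 (95% interval -0.56 to 0.068), -0.16 (-0.43 to 0.11) and 0.18 (-0.37 to 0.73), so a change between the times of up to these bounds cannot be told from none. The difference for *IRS1*, -0.22 (adjusted p = 0.180), was -0.32 (adjusted p = 0.0259) without NXP800 6 h replicate 3. For *FOXO4* it was 0.63 (adjusted p = 0.151), and 0.87 (adjusted p = 0.0468) without DMSO 24 h replicate 3.

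Per kilobase of exon, *FOXO3* and *IRS1* had the highest levels in every group. In DMSO they were close, at 8.05 ± 0.487 and 7.42 ± 0.148 CPM per kb at 6 h and 7.22 ± 0.953 and 8.15 ± 0.327 at 24 h, and their libraries overlapped at 24 h. In NXP800 *FOXO3* stood above *IRS1*, at 19.5 ± 1.30 against 9.38 ± 1.20 CPM per kb at 6 h and 15.7 ± 1.27 against 8.84 ± 0.673 at 24 h. *FOXO1* followed in DMSO at 6 h with 2.47 ± 0.208 CPM per kb, and in NXP800 *IRS2* reached 3.01 ± 0.359 at 6 h, overlapping with *FOXO1* at 3.09 ± 0.410, and 3.23 ± 0.280 at 24 h. *KLHL24* rose from 0.410 ± 0.0753 to 1.15 ± 0.0316 CPM per kb at 6 h, past *PIK3R1*, which went from 1.46 ± 0.1204 to 1.04 ± 0.0744. *INSR* and *FOXO4* stayed below 1 CPM per kb in every library, and *PIK3IP1* was lowest in every group, at no more than 0.161. Exon lengths are from GENCODE, whose models can differ from the RefSeq models counted.

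The genes whose log2 CPM followed these genes most closely across the 12 libraries are given as a description, since the libraries share the 4 groups and any gene with like group means will correlate. *STC2*, a secreted stress-induced glycoprotein, and *ACVR1*, a BMP and activin receptor, followed *FOXO3* (Pearson r = 0.992 each). *OSER1* and *ZNF213* followed *IRS2* (0.989 and 0.988), and *CCNDBP1* and *UIMC1* followed *KLHL24* (0.982 and 0.977). For the others, *TGFBR3L* and *STIM1* were closest to *INSR* (0.984 and 0.978), *ARHGEF18* and *AKAP13* to *IRS1* (0.913 and 0.905), *MRPL15* and *GOLGA7* to *FOXO1* (0.971 and 0.959), *SLC46A1* and *ZBTB12* to *FOXO4* (0.976 and 0.971), *CEBPD* and *LITAF* to *PIK3IP1* (0.928 and 0.901), and *RIN1* and *HECW1* to *PIK3R1* (0.981 and 0.970).

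Genes that textbooks list as FOXO-induced rose more often than they fell at 6 h, with 16 of 26 tested up, 3 down and 7 not called. FOXO activity was not measured, and whether FOXO factors caused these or the following changes was not tested. Their median log2 fold change was 0.59. *TXNIP*, which binds and inhibits thioredoxin, rose by 3.27 (SE 0.15, adjusted p = 1.60e-10) on the log2 scale, and *GADD45A*, a growth arrest and DNA damage gene, by 2.63 (SE 0.13). The antioxidant genes *CAT* (catalase) and *PRDX3* (mitochondrial peroxiredoxin) fell by 0.62 and 0.43. At 24 h the list was less one-sided, with 11 up, 6 down, 9 not called and a median of 0.16. *TXNIP* rose by 4.69 and *CDKN1A*, a cyclin-dependent kinase inhibitor, by 1.72, while *CAT* fell by 1.51 and *FBXO32*, a muscle atrophy ubiquitin ligase subunit that had risen by 0.76 at 6 h, fell by 1.24.

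Of the 6 FOXO-repressed genes, 4 fell and 2 rose at 6 h, and 3 fell and 2 rose at 24 h, with medians of -0.31 and -0.59. *FOXM1*, a driver of mitotic genes, fell by 0.47 and 1.24, and the mitotic genes *PLK1* and *CCNB1* fell by 0.33 and 0.30 at 6 h and by 1.39 and 1.27 at 24 h. *CCND1*, a cyclin of early cell cycle entry, fell by 0.50 at 6 h and had a log2 fold change of 0.054 (adjusted p = 0.590) at 24 h. The 2 that rose were the growth gene *MYC*, by 2.36 and 1.44, and *CCND2*, a related cyclin, from 6 to 10 counts a library in DMSO to 68 to 106 in NXP800 at 6 h and from 0 to 5 to 66 to 85 at 24 h. *CCND2* is named after its values were seen.

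Of 24 tested genes of the PI3K and AKT core, 7 rose and 9 fell at 6 h (median -0.015) and 3 rose and 12 fell at 24 h (median -0.17). *AKT1*, the kinase that phosphorylates FOXO factors, fell from 242 ± 19.5 to 159 ± 11.1 CPM at 6 h and from 279 ± 7.27 to 163 ± 12.5 CPM at 24 h, by 0.61 and 0.77 on the log2 scale. *SGK1*, a related kinase that also phosphorylates *FOXO3*, rose by 1.50 and 0.89. The catalytic subunit *PIK3CD* rose by 0.88 at 6 h and fell by 0.37 at 24 h, and *PIK3CB* fell by 0.83 and 0.37. The phosphatase *PHLPP1*, which removes a phosphate from AKT, fell by 0.75 and 0.70. *INPP4B*, a lipid phosphatase that restrains the pathway, fell by 0.75 at 24 h, and *GSK3B*, a kinase held in check by AKT, rose by 0.46.

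Among 21 tested adaptors and dampers of receptor signalling, 8 rose and 9 fell at 6 h (median -0.14) and 9 rose and 5 fell at 24 h (median 0.075). The ubiquitin ligases *CBLB* and *CBL* rose by 1.37 and 0.86 at 6 h and by 0.82 and 0.50 at 24 h. The adaptor *SH2B1* fell by 0.94 and 0.76 and *DOK1* fell by 0.84 at 6 h, while the adaptor *GAB2* rose by 0.69 and 0.98. *ENPP1*, which inhibits the insulin receptor, fell by 0.72 at 6 h and by 2.40 at 24 h, and *SOCS3*, which blocks receptor signalling, fell by 0.53 and 0.82.

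Of 21 tested FOXO partners and regulators, 6 rose and 7 fell at 6 h (median -0.070) and 5 rose and 8 fell at 24 h (median -0.13). *SKP2*, a ubiquitin ligase subunit that targets *FOXO1*, fell by 2.18 and 1.59. The kinase *STK4* rose by 0.61 and 0.44, the deacetylase *SIRT1* rose by 0.60 and 0.41 and *SIRT2* fell by 0.39 and 0.49. The acetyltransferase *CREBBP* rose by 0.66 and 0.31. *YWHAH*, a protein that can hold FOXO factors in the cytoplasm, fell by 0.49 at 6 h and by 0.18 at 24 h, a call that was lost with scaling by library size only (-0.093, adjusted p = 0.1999) and, among other settings, without DMSO 24 h replicate 1 or 3 or NXP800 24 h replicate 2.

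The relatives of *KLHL24* changed in both directions. Of 19 tested Kelch-like and CUL3 genes, 6 rose and 9 fell at 6 h (median -0.043), and 4 rose and 3 fell at 24 h (median -0.044). *KLHL2* rose by 0.64 at both times and *KLHL8* by 0.53 and 0.46. *KLHL22* fell by 1.28 at 6 h, *KLHL13* fell by 0.80 and 0.66, and *RBX1*, the RING subunit that works with CUL3, fell by 0.50 and 0.49. The list counts rest on lists chosen with earlier results of these data known, and they stand beside 25.0% up and 27.8% down over all tested genes at 6 h and 27.5% up and 28.6% down at 24 h.

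**Figure D4:**
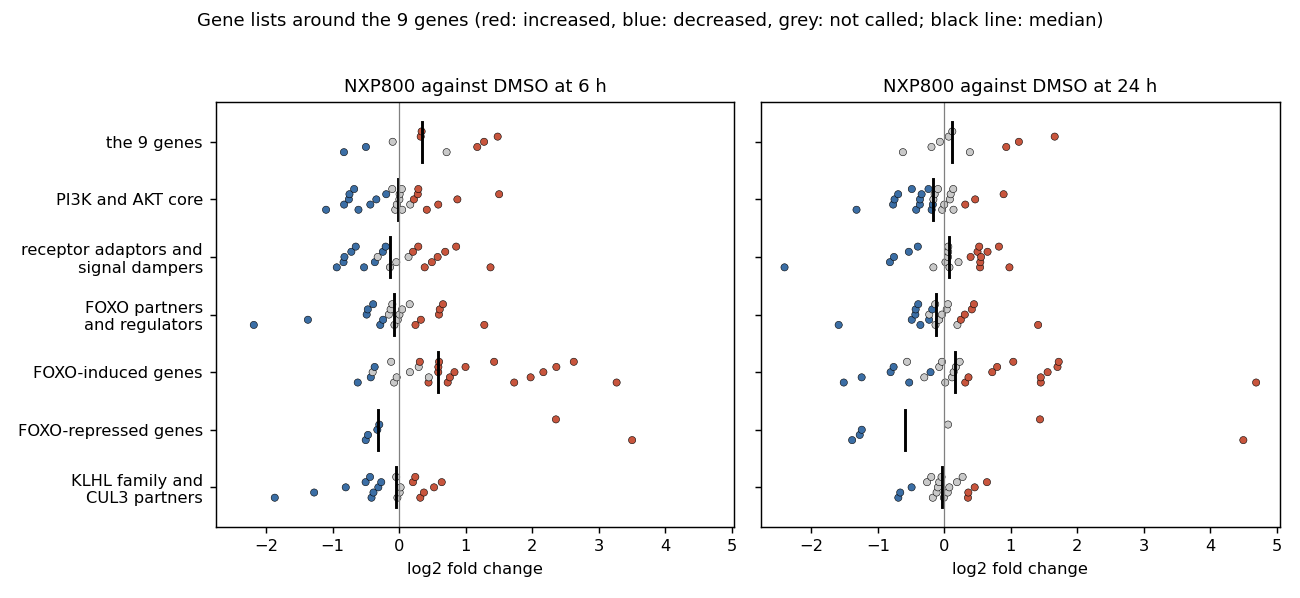
Log2 fold change of NXP800 against DMSO for the 9 genes and for the tested genes of 6 related lists at 6 h and 24 h. Each point is a gene, red where it increased, blue where it decreased and grey where it did not pass the test. Black lines are medians, which for the 6 lists run from -0.31 to 0.59 at 6 h and from -0.59 to 0.16 at 24 h.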

How the data were processed

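The deposited values are raw read counts per gene for 12 libraries, which the authors made with fastp 0.20.1, STAR 2.7.5a and HTSeq 0.12.4 on hg38 with RefSeq genes, per the submitters' processing notes and the study's methods. The kit was strand-specific, and the strand setting of the counting is not given in the sources used here. Library sizes and tests exclude the 5 counter entries without a gene, among them reads on no gene at 2.73 to 8.14% and ambiguous reads at 2.10 to 2.43%.

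Counts were tested in R 4.3.3 with edgeR 4.0.16 (quasi-likelihood test, 1 model of 4 groups with 8 residual degrees of freedom, TMM scaling, filterByExpr) over 15979 genes, with a call at a Benjamini-Hochberg adjusted p below 0.05. DESeq2 1.42.0 was an alternative. The fits were tested on simulated data that held no effect of the replicate number. The pass criterion was changed after a fit fell short of the first criterion. The chi-square per degree of freedom between replicates was 7.36 to 26.3, above sampling noise. Same-numbered DMSO and NXP800 libraries deviated together (r = 0.159 to 0.329 across genes, which are not independent replicates, and at most 0.0580 for other pairs). The replicate numbers of the labels were therefore also fitted as a block. Deviations were taken from group means, so a positive r of same-numbered libraries pulls the other pairs down. The other pairs are thus no independent comparison. The members and lists were chosen with earlier results of these data known. Named list genes are the 2 largest called rises and falls of each list at each time among genes whose mean log2 CPM was 1 or more, and the 2 genes of highest Pearson r are named for each of the 9. With 30810614 to 31947656 counts a library, counting error matters most for low genes such as *PIK3IP1* (8 to 20 counts) and *FOXO4* (32 to 100). It also adds to the spread of *INSR* (109 to 335 counts) and *KLHL24* (94 to 472).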

Additional observations from a re-analysis of the deposited data

Results flagged for a closer look

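The 25 results here are those of the 9 genes and the named list genes whose response at 24 h differed from that at 6 h in edgeR's test of the difference itself (adjusted p below 0.05), given as the 24 h minus the 6 h log2 fold change. Groups of 3 libraries were not searched for single outlying samples. Other called genes of each list are given as counts only. These counts stand beside 1924 positive and 2205 negative called differences among all 15979 tested genes, 25.8% in either direction. The lists were chosen with earlier results of these data known, so the list counts are a description only. Of the 9 genes, *PIK3R1* (0.43) and *PIK3IP1* (-1.34) are among the 25 results.

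In the PI3K and AKT core, 3 of 24 tested genes had a positive and 7 a negative called difference. It was negative for *PIK3CD* (-1.24), *INPP4B* (-0.80) and *SGK1* (-0.61) and positive for *PIK3CB* (0.46) and *GSK3B* (0.46). Among adaptors and dampers, with 6 positive and 4 negative of 21, it was -1.69 for *ENPP1*, -0.56 for *CBLB* and 0.91 for *DOK1*.

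Among FOXO-induced genes, with 2 positive and 13 negative of 26, it was -2.01 for *FBXO32*, -0.93 for *GADD45A*, -0.89 for *CAT*, -0.45 for *CDKN1A* and -0.34 for *PRDX3*, against 1.42 for *TXNIP*. *FBXO32* passed the test upward at 6 h and downward at 24 h, as did *PIK3CD*. Among FOXO-repressed genes, with 1 positive and 4 negative of 6, it was -1.06 for *PLK1*, -0.98 for *CCNB1*, -0.92 for *MYC*, -0.78 for *FOXM1* and 0.56 for *CCND1*. Among FOXO partners, with 2 positive and 2 negative of 21, it was 0.59 for *SKP2*, 0.30 for *YWHAH* and -0.35 for *CREBBP*, and among Kelch-like genes, with 4 positive and 1 negative of 19, it was 1.20 for *KLHL22*.

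Some of these calls were lost when a single library was left out, for several genes whichever of many libraries it was. Beside *PIK3R1* and *PIK3IP1*, the call was lost in 9 of the 12 fits with 1 library left out for *CDKN1A* (adjusted p up to 0.116), in 7 for *CREBBP* (up to 0.0860), in 6 for *YWHAH* (up to 0.0764), in 4 for *PRDX3* (up to 0.0632) and in 2 for *SGK1* (up to 0.0653). With library size only it was lost for *CDKN1A*, *CREBBP* and *PRDX3*.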

How the results depend on the processing

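The calls of *IRS2*, *FOXO3* and *KLHL24* at both times and of *IRS1*, *FOXO4* and *PIK3R1* at 6 h were kept in every alternative run. Across the 9 genes, 493 of 531 alternative values kept their direction and side of the threshold, 24 fell short of it, 11 newly passed and 3 turned direction. The last are *FOXO4* at 24 h (leave-one-out range -0.38 to 0.041) and *PIK3R1* at 24 h (0.019 with library size only, leave-one-out range -0.15 to 0.020). For the named list genes, 1732 of 1777 alternative values kept their direction and side of the threshold and 45 fell short. Only results called in the main fit were run for these genes, so none could newly pass. Their rate therefore cannot be compared with that of the 9 genes. Neither total measures stability, since some of the values could hardly change. For the 9 genes, the stricter threshold could not move a result that was not called. In both totals, some values at 6 h or 24 h came from fits without a library of the other time.

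The number of the 9 genes called at 24 h was 3, and 5 with library size only, which added *INSR* (0.47, adjusted p = 0.0231) and *IRS1*. For the difference of the responses it was 2, against 4 with the replicate block, 1 with no filter on low counts, 1 with at least 10 counts in every library (where *PIK3IP1* was not tested), 1 with DESeq2, 0 at an adjusted p below 0.01 and 0 to 3 with 1 library left out (edgeR, 2 to 4 at an unadjusted p below 0.05). The share of all tested genes at an unadjusted p below 0.05 was not computed. Over all genes the difference of the responses had 4129 calls, 6284 with the replicate block. It split into 1924 up and 2205 down, and with library size only into 2463 and 1670. Other scalings moved the median of all genes by at most 0.0892. *PIK3IP1* passed at 6 h with only the 6 libraries of that time (0.75, adjusted p = 0.0447), and *INSR* at 24 h with no filter (0.40, adjusted p = 0.0177). Beyond *INSR* and *FOXO4*, the replicate block changed no other call of the 9 genes and ended no call of the named list genes. The cause of these changes was not tested. Depth limits *PIK3IP1* most, with 8 to 20 counts a library, and then *FOXO4*, with 32 to 100.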

Other observations

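*FOXO3B*, the near-identical copy of *FOXO3*, had 299 to 413 counts in DMSO and 910 to 987 in NXP800 at 6 h, and 235 to 321 against 413 to 607 at 24 h. Its log2 fold change was 1.39 (adjusted p = 5.21e-07) at 6 h and 0.88 (adjusted p = 7.15e-05) at 24 h by edgeR's quasi-likelihood test, and the difference of the responses was -0.51 (adjusted p = 0.0720). Reads of the copies cannot be told apart where the sequence is the same.

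In DMSO alone, *INSR* had 3.81 ± 0.331 CPM (SD, n = 3) at 6 h and 6.31 ± 0.975 CPM at 24 h, and *FOXO1* 14.7 ± 1.24 and 11.3 ± 1.13 CPM. Time and library set cannot be told apart, so these levels are given without a test.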
